A study of Rattus norvegicus with 49 samples.

Results

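The genes described here encode the coats, the membrane pore and the cargo receptors of the early secretory pathway, measured in the thyroids of rats given 131I and of untreated rats. The list held 41 genes in 4 roles, which are the coatomer (COPI) coat with its ARF GTPases, the COPII coat with its SAR1 GTPases, the SEC61 translocon with the translocon-associated SSR subunits, and the cargo receptors of the p24 (TMED), LMAN and KDEL receptor families. A gene was represented by the probe whose accession the array's design gave as its transcript, and where several probes matched, by the probe with the highest mean signal over all arrays. The members' probes were thus chosen by their mean signal over the 49 arrays, which is not used as a result. By this rule 36 of the 41 genes had a probe, out of 15154 genes matched on the array. These were 10 of 11 COPI genes, 8 of 11 COPII genes, 8 of 9 translocon genes and all 10 cargo receptors, and all 36 passed the filter on dim probes. No probe was matched for Cope, Sec23b, Sec24d, Sec16a or Sec62.

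Male Sprague Dawley rats received 131I intravenously at 5 weeks of age (young) or at 17 weeks (adult), and thyroids were taken 3, 6 or 9 months later. Young rats received 50 kBq and were followed for 3, 6 and 9 months, or received 0.5, 5 or 500 kBq and were followed for 9 months. Adult rats received 50 kBq and were followed for 3, 6 and 9 months, and untreated controls were 4, 7, 10 or 13 months old. The 49 one-colour arrays fell into 13 groups of 4, except for 3 arrays each of the young 5 kBq group, the 7-month controls and the 13-month controls. Each exposed group was compared with controls of the nearest age, so the 13-month controls served the adult group at 9 months and the 10-month controls served every young group at 9 months.

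In the early secretory pathway, a nascent protein with a signal sequence enters the endoplasmic reticulum (ER) through the SEC61 channel, which the SSR complex accompanies. COPII vesicles, started by SAR1 and built from an inner SEC23 and SEC24 layer and an outer SEC13 and SEC31 layer, carry cargo out of the ER. COPI vesicles, started by ARF1 and coated by coatomer, return escaped ER proteins and recycling receptors from the Golgi, and the KDEL receptors select those ER proteins by a signal at their end. Follicular cells of the thyroid depend on this route because thyroglobulin, the large precursor of thyroid hormone, is made in the ER and secreted into the follicle.

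Promoters of several members hold TGACGTGG, a sequence of the kind bound by bZIP factors such as CREB3-like proteins and XBP1, which are known to act on secretory pathway genes. In RefSeq windows of rat build GRCr8, each of 300 bases and ending 50 bases after a gene's start, 36 of the 41 listed genes had a window, and 7 of these 36 (19.4%) held TGACGTGG on either strand. The same letters were in 199 of 33469 windows (0.595%) and in 187 of 27457 genes (0.681%). The 7 members were the coatomer subunits Copa, Copb1 and Copb2, the GTPases Arf1 and Arf4, the COPII inner coat gene Sec23a and the KDEL receptor Kdelr3. Sequence upstream of the start is shown for the 5 of them in which the match lies wholly before the start, because Sec23a and Arf1 are among the members whose signals are described most closely below. Each is given 5′ to 3′ on the gene's strand, with capitals marking TGACGTGG or its reverse complement.
Sec23a: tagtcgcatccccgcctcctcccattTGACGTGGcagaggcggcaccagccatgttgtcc
Kdelr3: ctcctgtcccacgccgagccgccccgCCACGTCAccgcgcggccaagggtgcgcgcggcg
Copb2: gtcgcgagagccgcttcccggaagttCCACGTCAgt
Arf1: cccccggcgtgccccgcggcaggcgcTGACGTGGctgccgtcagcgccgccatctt
Arf4: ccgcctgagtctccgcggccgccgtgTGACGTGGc
These lie at chr6:82440962-82441021 on the minus strand for Sec23a, chr7:112959505-112959564 on the plus strand for Kdelr3, chr8:108040651-108040686 on the plus strand for Copb2, chr10:44513995-44514050 on the minus strand for Arf1 and chr16:1903401-1903435 on the plus strand for Arf4. The capitals begin 91 bases before the start in Sec23a, 101 in Kdelr3, 10 in Copb2, 30 in Arf1 and 9 in Arf4. The shorter core TGACGT, which TGACGTGG contains, was in 11 of the 36 members with a window (30.6%) and in 7.94% of all windows. Among 82 other genes of the secretory pathway with a window, 5 held TGACGTGG (6.1%) and 22 held TGACGT (26.8%). The ER stress element (CCAAT and CCACG with 9 bases of any kind between them), the site through which unfolded protein response factors act on chaperone genes, was in 0 members and in 22 of all windows (0.0657%). Among the 82 other pathway genes 7 held it, namely Calr, Canx, Creld2, Dnajc3, Hsp90b1, Hspa5 and Xbp1. A match of letters is a description of the window and not evidence that a factor binds there.

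Values below are relative log2 signals, that is the log2 of the processed signal minus the array's 75th percentile on the same scale, and a fold change is a difference of group means on that scale. A probe was called when limma's adjusted p (Benjamini-Hochberg over 25284 probes) was below 0.01 and the fold change was above 1.5 in either direction, and a second level at adjusted p under 0.05 is also given. Before the members' results, 3 kinds of array need to be described. Replicate 2 of the young rats at 3 months was dim, with a 75th percentile of 61.4 intensity units against 787 to 4167 on the other arrays. On it 43.1% of spots were well above background, against 69.2% to 82.5% on the others. Replicate 3 of that group and replicate 2 of the 7-month controls had little signal of the 11 follicular thyrocyte markers, whose mean lay 5.76 and 6.42 log2 units below the median of the arrays, with 7 and 8 of the 11 still well above background. In these 2 samples the C cell markers (deviations of -5.18 and -5.53) and the parathyroid markers (-6.94 and -7.12) were low as well. The 3 controls of 13 months were dim (75th percentiles of 1331 to 1447 units) and low in skeletal muscle markers (-3.83, -3.77 and -2.55). In whole tissue, fewer cells of a type and less RNA per cell cannot be told apart.

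Across the arrays the roles were compared by their medians. For each member the signal on an array was taken relative to that member's own median over the 49 arrays, and the median over a role's members was then taken. The COPI, translocon and cargo receptor medians had 1 sign on 42 of the 49 arrays, while the COPII median shared the sign of COPI on 21 and that of the translocon on 19. The COPII median also spanned less, 0.79 log2 units from the lowest to the highest array, against 1.59 for COPI, 1.86 for the translocon and 1.62 for the cargo receptors. A median does not show whether the members of a role moved together. In the controls of 13 against 4 months, described below, 4 COPII members lay above 0 and 4 below, with log2 fold changes from -1.49 to 0.92. At least 25 of the 36 members lay above their own median on 19 arrays, and at most 11 did on 22 arrays. All 3 arrays of the 13-month controls and all 3 of the young rats given 5 kBq were among the former, and no array of the young rats at 3 months was.

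**Figure D1:**
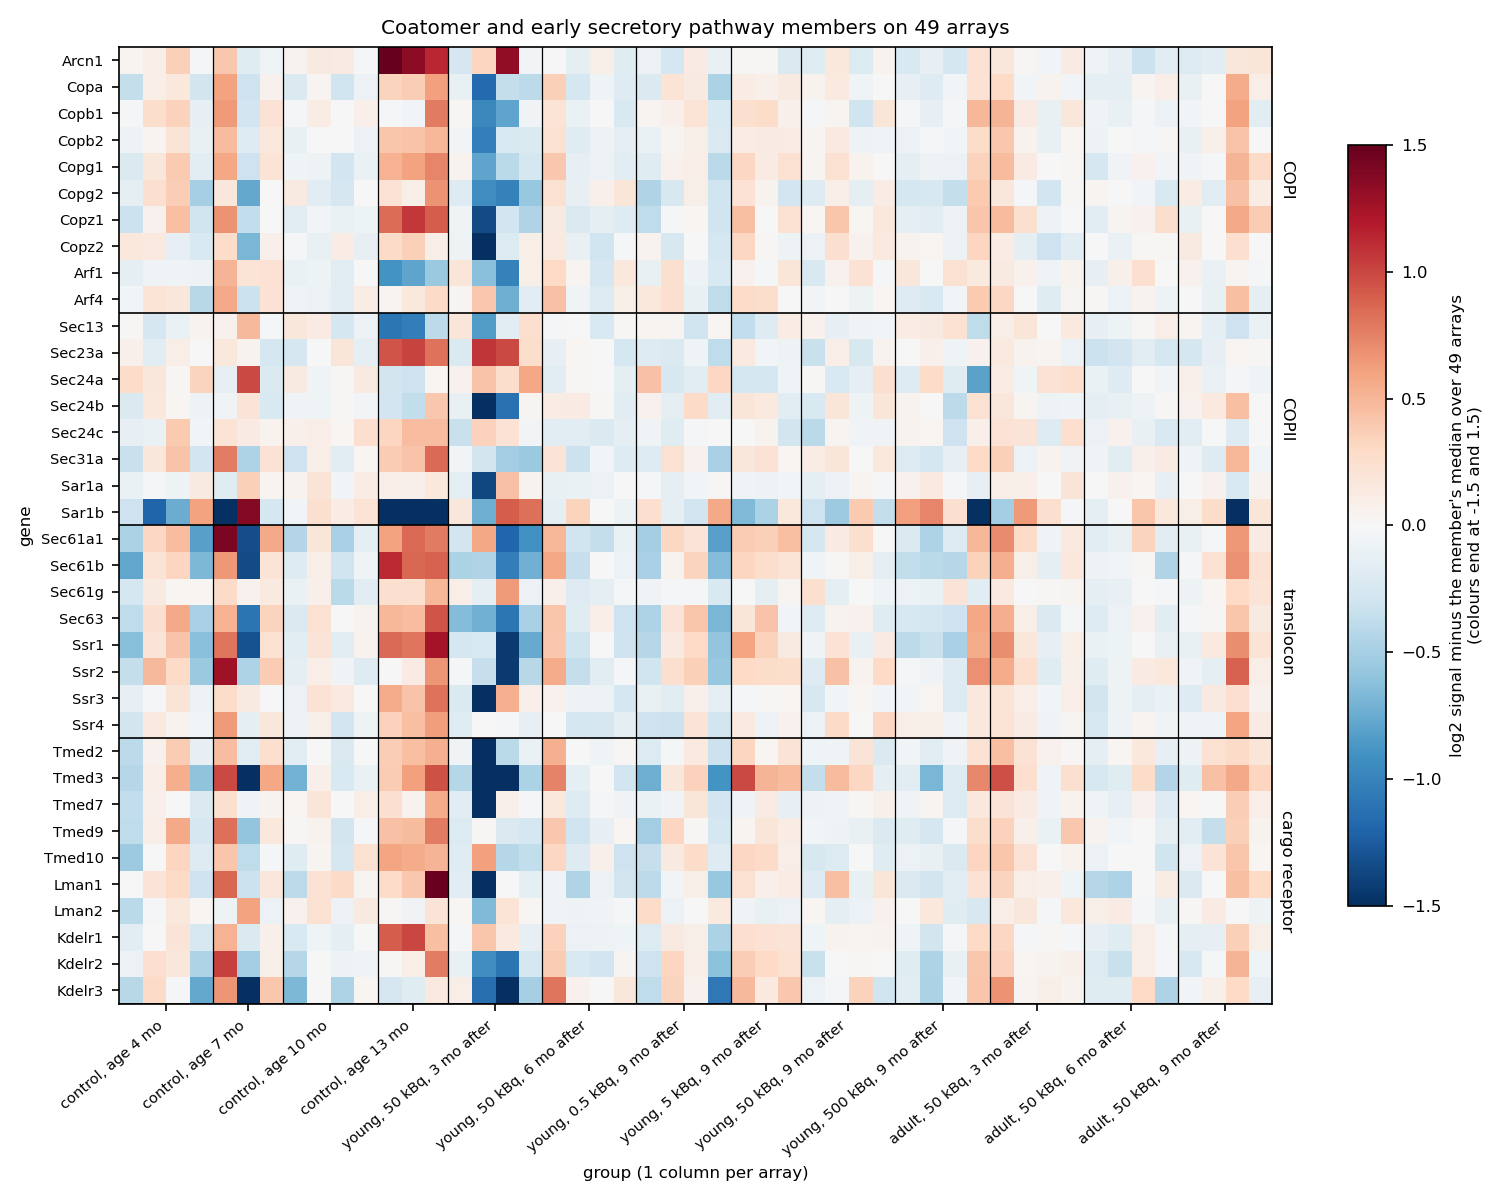
Relative log2 signal of the 36 members (rows, by role) on the 49 arrays (columns, by group), each shown as the difference from the member's own median over all arrays, with colours ending at -1.5 and 1.5. The 3 controls of 13 months are red for most COPI, translocon and cargo receptor members and blue for Arf1, Sec13 and Sar1b.

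The medians of the COPI, translocon and cargo receptor members mostly had the sign of the thyrocyte marker mean. The sign of the array's thyrocyte marker mean was shared by the cargo receptor median on 43 arrays, by the translocon median on 42, by the COPI median on 40 and by the COPII median on 18. On the 2 arrays with little thyrocyte signal the translocon median was -1.06 and -0.78, the COPI median -0.38 and -0.31, and the COPII median 0.24 and 0.28. These are counts over arrays that share groups and slides, and no test was made of them. What part the cellular makeup of the samples had in the members' values was not tested.

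**Figure D2:**
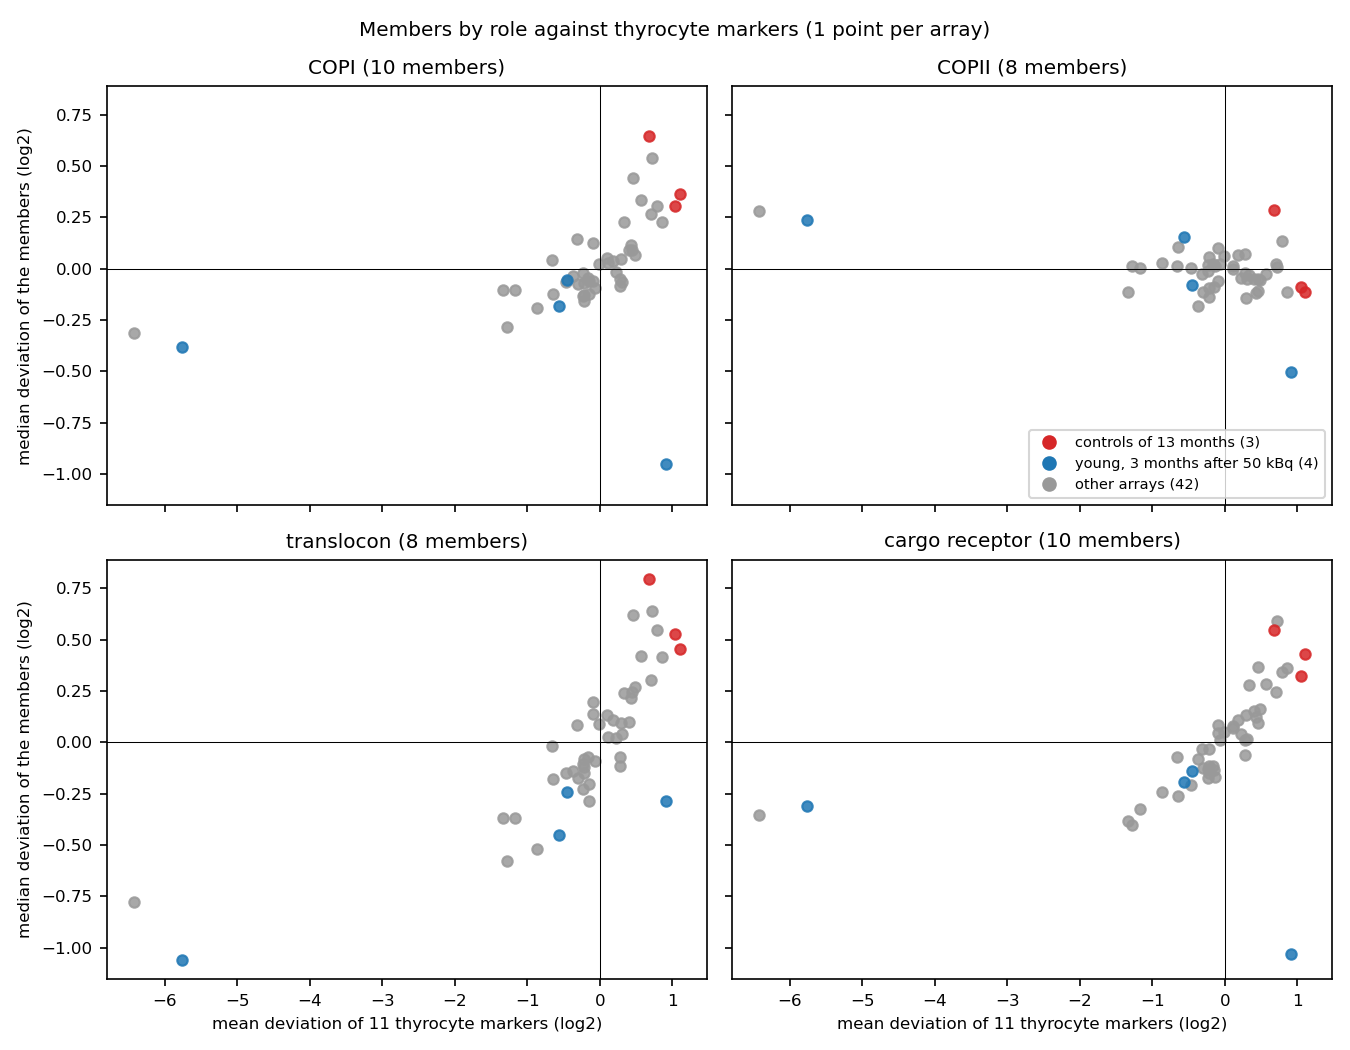
Median deviation of the members of each role (y axis, log2 units) against the mean deviation of 11 follicular thyrocyte markers (x axis, log2 units), 1 point per array. Points for COPI, translocon and cargo receptors lie mostly in the lower left and upper right, those for COPII do not, and the dim array of young rats at 3 months lies lowest for COPI, COPII and cargo receptors.

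The group means placed 26 of the 36 members highest in the 13-month controls and 25 lowest in the young rats 3 months after 50 kBq. The share of all probes with these extremes is not given here, so the counts are not read as particular to the members. In those young rats the members' median deviation was -0.73 on the dim array and -0.32 on the array with little thyrocyte signal. On replicates 1 and 4 it was -0.11 and -0.13. Of the 10 members not highest in the 13-month controls, Sar1b, Sec13 and Arf1 were lowest there. The other 7 were highest in the young rats given 5 kBq (Tmed3, Kdelr3 and Arf4), the 7-month controls (Ssr2 and Lman2), the adult rats at 9 months (Sec24b) or the young rats at 3 months (Sec24a). The F test over all 13 groups in limma passed the adjusted p of 0.01 for 2 members, Arcn1 and Sec23a, where 0.285% of all probes passed, and 5 members passed 0.05 where 5.58% of all probes did.

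The untreated controls of 13 months were compared with those of 4 months, which differ in age. Their arrays also differed in the 75th percentile (1331 to 1447 against 1742 to 3236 units) and in the cell type markers given below. Age cannot be told apart from these differences, and its part was not tested. In this comparison 6 of the 36 members were called where 5.06% of all probes were, 5 of them higher (2.95% of all probes) and 1 lower (2.11%). The 5 that rose were Arcn1, Sec23a, Kdelr1, Copz1 and Sec61b, and the 1 that fell was Sec13. At adjusted p under 0.05, 9 members rose and 3 fell, where 18.9% of all probes passed (11.2% higher and 7.72% lower). The median log2 fold change of the 36 members was 0.45, against 0.19 for all probes, and 31 members lay above 0 where 59.9% of all probes did. All 8 translocon members lay above 0 (median 0.63), as did all 10 cargo receptors (median 0.51), while the medians were 0.39 for COPI and 0.04 for COPII.

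Within COPI, Arcn1, the delta subunit of coatomer, read -0.52, -0.69 and -0.91 in the 13-month controls and -2.00, -1.94, -1.67 and -2.07 in the 4-month controls. The groups did not overlap, and the log2 fold change was 1.21 ± 0.21 (SE), with an adjusted p of 0.0008 in limma. Copz1, the zeta subunit, read 3.25, 3.48 and 3.33 at 13 months and 2.10, 2.49, 2.87 and 2.12 at 4 months. All 3 values at 13 months were higher than on any of the other 46 arrays, and the fold change was 0.96 ± 0.23 (SE, adjusted p 0.0061 in limma). Its second probe gave 0.71 with an adjusted p of 0.0192. Copg1, a gamma subunit, read 1.24, 1.32 and 1.45 against 0.51, 0.89, 1.12 and 0.57 and rose by 0.57 at the second level (adjusted p 0.0361 in limma). Arf1, the GTPase that recruits coatomer, went the other way. It read 0.93, 1.03 and 1.26 at 13 months and 1.69, 1.77, 1.76 and 1.74 at 4 months, a change of -0.66 ± 0.18 (SE) that passed the second level (adjusted p 0.0108 in limma). The remaining COPI members, Copa, Copb1, Copb2, Copg2, Copz2 and Arf4, had log2 fold changes of 0.12 to 0.53 with adjusted p from 0.0621 to 0.738.

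Within COPII the members split. Sec23a, the GTPase-activating subunit of the inner coat, read -2.03, -1.97 and -2.17 in the 13-month controls and -2.91, -3.14, -2.89 and -2.98 in the 4-month controls. It rose by 0.92 ± 0.18 (SE, adjusted p 0.0020 in limma). Sec13, a subunit of the outer coat that is also part of the nuclear pore, read 0.09, 0.14 and 0.79 at 13 months and 1.20, 0.93, 1.08 and 1.24 at 4 months, so that replicate 3 lay nearest to the younger controls. The groups did not overlap, and Sec13 fell by 0.77 on the log2 scale (SE 0.19, adjusted p 0.0067 in limma). Sar1b, a GTPase that starts the coat, read 1.75, 1.73 and 1.88 at 13 months against 3.38, 2.48, 2.95 and 4.29 at 4 months, a change of -1.49 ± 0.53 (SE, adjusted p 0.0441 in limma). Its relative Sar1a had a change of 0.13 with an adjusted p of 0.68. The other 4 COPII members did not pass, with changes from -0.38 for Sec24a to 0.56 for Sec31a.

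The translocon members were all higher on average at 13 months, and 3 of the 8 passed the second level. Sec61b, the beta subunit of the channel, read 2.69, 2.43 and 2.45 against 0.78, 1.77, 1.88 and 0.89, and rose by 1.19 ± 0.30 (SE, adjusted p 0.0083 in limma). Ssr1, the alpha subunit of the translocon-associated complex, read 2.58, 2.54 and 2.99 against 1.10, 1.93, 2.17 and 1.12. The 4-month controls fell into a lower and a higher pair for both genes. For Ssr1 the change was 1.13 ± 0.33 (SE, adjusted p 0.0185 in limma), but its second, dimmer probe gave -0.34. Ssr4, the delta subunit, read 4.81, 4.91 and 5.08 against 4.18, 4.60, 4.52 and 4.42 and rose by 0.51 (adjusted p 0.0260 in limma). Sec61a1, Sec61g, Sec63, Ssr2 and Ssr3 had changes of 0.30 to 0.87 with adjusted p from 0.0583 to 0.539.

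Among the cargo receptors, Kdelr1, which retrieves ER chaperones from the Golgi, read 1.51, 1.61 and 1.06 at 13 months against 0.44, 0.61, 0.80 and 0.37 at 4 months. The change was 0.84 ± 0.17 (SE, adjusted p 0.0026 in limma). Its relatives Kdelr2 and Kdelr3 had changes of 0.33 and 0.13 that did not pass. Tmed10, a p24 protein, read 4.19, 4.15 and 4.11 against 3.05, 3.60, 3.92 and 3.41 and rose by 0.66 (adjusted p 0.0283 in limma). The other 7 receptors, which include the lectins Lman1 and Lman2, had changes of 0.11 to 0.75 with adjusted p from 0.0860 to 0.869.

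**Figure D3:**
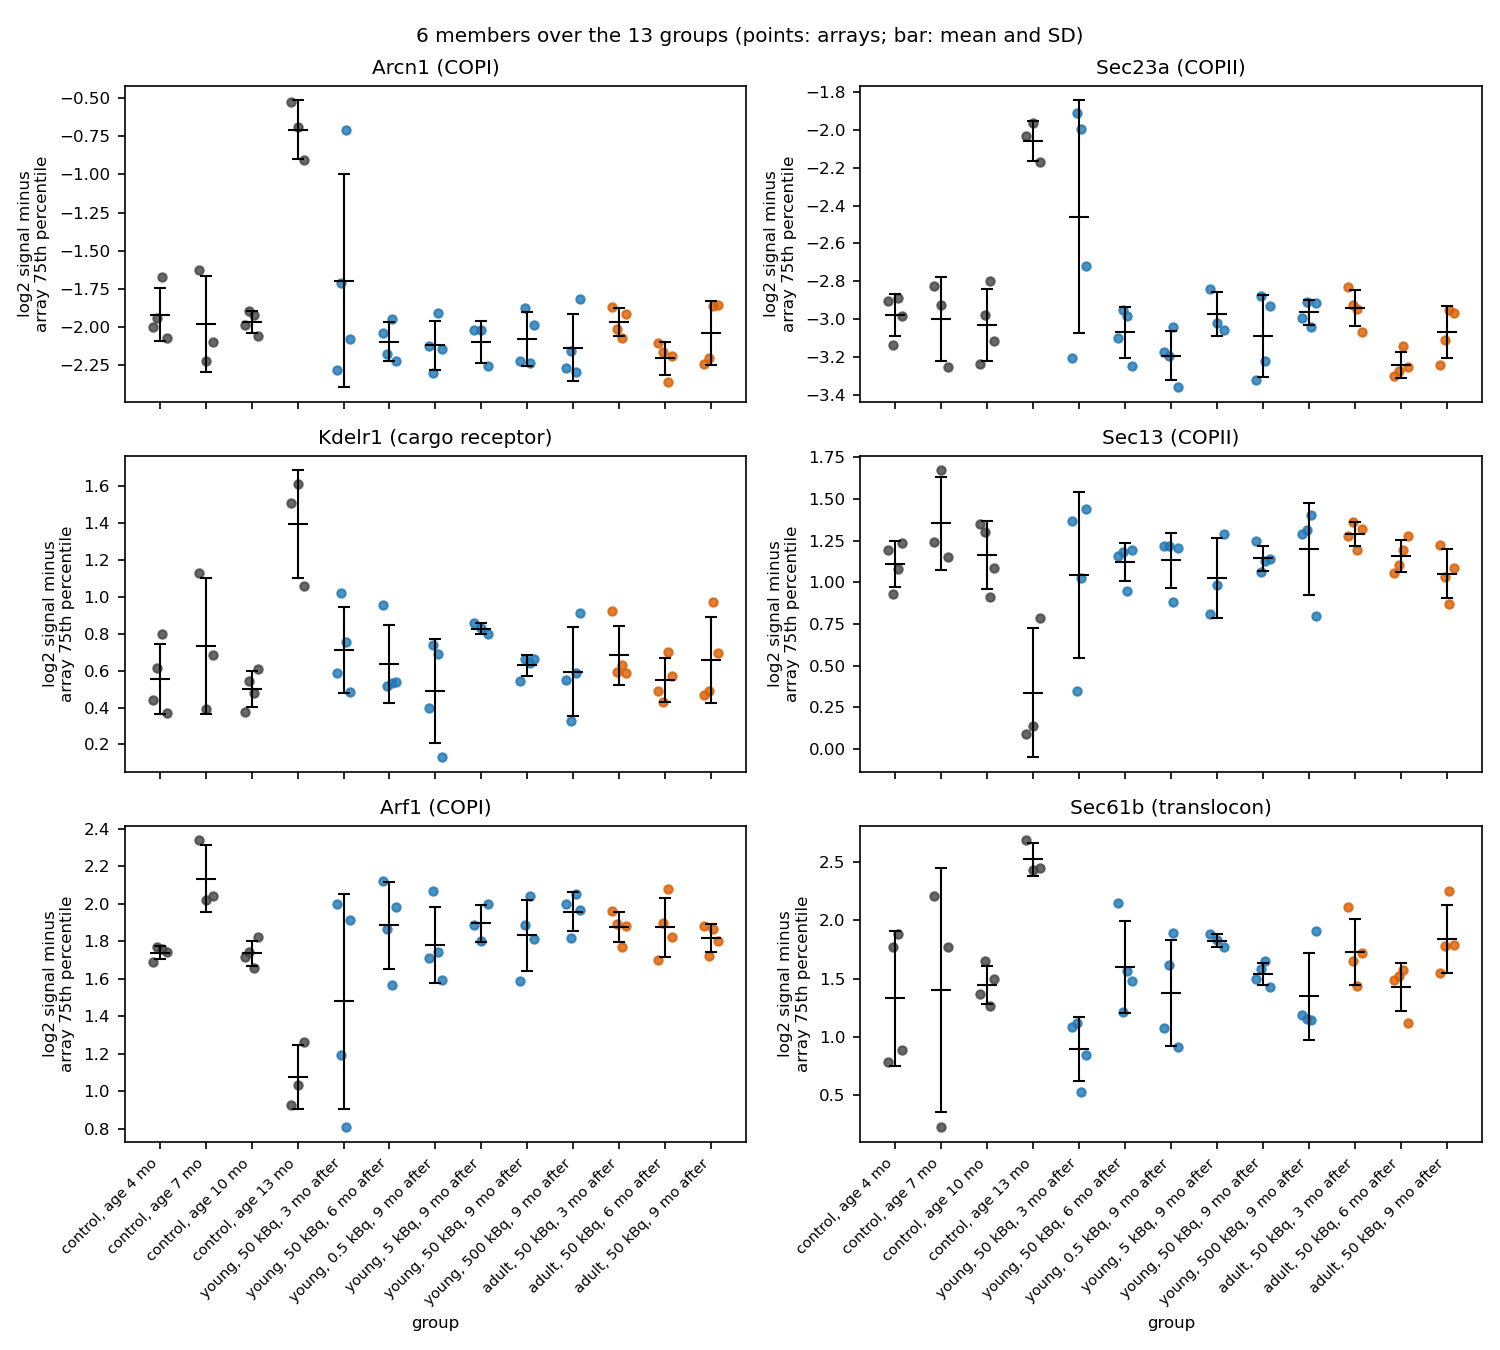
Relative log2 signal (y axis) of Arcn1, Sec23a, Kdelr1, Sec13, Arf1 and Sec61b in the 13 groups (x axis), with 1 point per array and a bar for the mean and SD, in grey for controls, blue for young and orange for adult rats. The 13-month controls stand apart from the other 12 group means in every panel, and individual arrays of the young rats at 3 months reach the same values for Arcn1, Sec23a, Arf1 and Sec13.

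The groups did not overlap for 17 of the 36 members, 14 higher and 3 lower at 13 months, where 34.2% of all probes did not overlap (21.4% higher and 12.8% lower). In two-sided exact permutation tests of the 12 members past the second level, Arcn1, Arf1, Kdelr1, Sec13, Sec23a and Ssr4 had p = 0.0286, the smallest that 3 against 4 arrays allow, and Copg1, Copz1, Sar1b, Sec61b, Ssr1 and Tmed10 had p = 0.0571. The 12 members were chosen on the same arrays, so these p-values are not separate evidence. The count of 6 called members fell to 0 without replicate 1 or 2 of the 13-month controls (0.0356% and 0.091% of all probes called) or with only the 2 groups in the fit (0%), to 1 without replicate 1 or 4 of the 4-month controls (0.214% and 0.356%) and to 2 with normexp background correction (1.97%). It rose to 10 when the dim array of the young rats was left out of the fit, where the share of all probes called rose from 5.06% to 15.9%. Within each of the 2 scan days that held both groups, the members' median was 0.55 (2 against 2 arrays) and 0.34 (1 against 2), and Arcn1 was higher by 1.25 and 1.18, Sec23a by 0.92 and 0.97, and Sec13 lower at -0.63 and -1.02.

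The cell type markers differed between the same groups. All 11 thyrocyte markers had higher means at 13 than at 4 months (median log2 fold change 1.65), although only 1 passed an adjusted p of 0.05 in limma, and their mean deviation was 0.67 to 1.10 in the 13-month controls against -1.33 to 0.70 in the 4-month controls. All 12 skeletal muscle markers had lower means (median -2.32), 5 of them past an adjusted p of 0.05, with mean deviations of -3.83 to -2.55 against -1.01 to 0.32. All 6 C cell markers had higher means (2 past an adjusted p of 0.05), with deviations of 0.63 to 2.58 against -1.97 to -0.13. Of 6 squamous epithelium markers 5 had lower means (1 past it), with deviations of -0.78 to -0.14 against 7.07, -0.41, 7.33 and 5.85 in the 4-month controls. All 4 parathyroid markers had higher and all 6 cartilage markers lower means, 0 past it. At least 10 of the thyrocyte and 11 of the muscle markers were well above background on every array of both groups. Replicate 3 of the adult rats at 9 months (muscle deviation -9.12), replicate 4 of the young 500 kBq rats (-2.76) and replicate 1 of the 7-month controls (-2.01) were also low in muscle markers. Their Arcn1 values were -1.87, -1.81 and -1.63 and their Sec23a values -2.95, -2.91 and -2.83, inside or near the 4-month values of each gene. Sar1b was 1.71, 1.99 and 2.03 on those 3 arrays, nearer to the 13-month mean of 1.79 than to the 4-month mean of 3.28. Copz1 was 2.99, 2.83 and 3.09, between the 4-month mean of 2.39 and the 13-month mean of 3.35. Sec61b was 2.25, 1.91 and 2.21, between 1.33 and 2.52. The part of tissue makeup in these differences was not tested.

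Exposure was tested in 9 comparisons, and the members were called in 1 of them, the adult rats 9 months after 50 kBq against the 13-month controls. In that comparison 2 members were called, both lower, where 0.542% of all probes were called (0.34% lower). Arcn1 read -2.24, -2.20, -1.87 and -1.86 in the exposed adults against -0.52, -0.69 and -0.91 in the controls, a change of -1.33 ± 0.21 (SE, adjusted p 0.0019 in limma). Sec23a read -3.24, -3.11, -2.95 and -2.97 against -2.03, -1.97 and -2.17, a change of -1.01 ± 0.18 (SE, adjusted p 0.0057 in limma). Neither gene overlapped between the groups, and the exposed values lay among those of the other 11 groups rather than apart from them. The means of the 12 groups other than the 13-month controls ran from -2.21 to -1.70 for Arcn1 and from -3.24 to -2.46 for Sec23a.

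At adjusted p under 0.05, a level that 4.81% of all probes passed, 6 members differed. Kdelr1 read 0.47, 0.49, 0.97 and 0.70 in the exposed adults against 1.51, 1.61 and 1.06 in the controls and fell by 0.74 (adjusted p 0.0153 in limma). Sec24c, a cargo-binding subunit of COPII, read 2.99, 3.17, 2.97 and 3.16 against 3.48, 3.63 and 3.62 and fell by 0.50 (adjusted p 0.0404 in limma), with -0.08 from its second probe. Arf1 and Sec13 rose. Arf1 read 1.88, 1.72, 1.86 and 1.80 against 0.93, 1.03 and 1.26, a change of 0.74 (adjusted p 0.0169 in limma), and Sec13 read 1.22, 1.03, 0.87 and 1.09 against 0.09, 0.14 and 0.79, a change of 0.71 (adjusted p 0.0284 in limma). The two-sided exact permutation p was 0.0286 for each of these 6 members, the smallest possible. That p needs groups without overlap, which 16.3% of all probes had in the lower and 9.73% in the higher direction. The 6 members were chosen on the same arrays, so it is not separate evidence. Sar1b, with values of 3.77, 3.97, 1.71 and 3.87 in the exposed adults, had a change of 1.54 that did not pass (adjusted p 0.0766 in limma). Its replicate 3 lay just below the controls (1.73 to 1.88).

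Over all 36 members the median change was -0.31, against -0.14 for all probes, and 30 lay below 0 where 59.4% of all probes did. The translocon median was -0.51 with all 8 members below 0, the cargo receptor median -0.33, the COPI median -0.25 and the COPII median 0.01. The groups did not overlap for 14 members lower and 2 higher in the exposed adults, where 16.3% and 9.73% of all probes did so. This comparison and that of the 13-month with the 4-month controls share the 13-month controls, so the opposite signs of Arcn1, Sec23a, Kdelr1, Arf1 and Sec13 in them come in part from the same 3 arrays. Without the 13-month controls, the exposed adults and the 4-month controls can be set side by side as means, which were -2.04 and -1.92 for Arcn1, -3.07 and -2.98 for Sec23a, 0.66 and 0.56 for Kdelr1, 1.82 and 1.74 for Arf1, and 1.05 and 1.11 for Sec13.

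**Figure D4:**
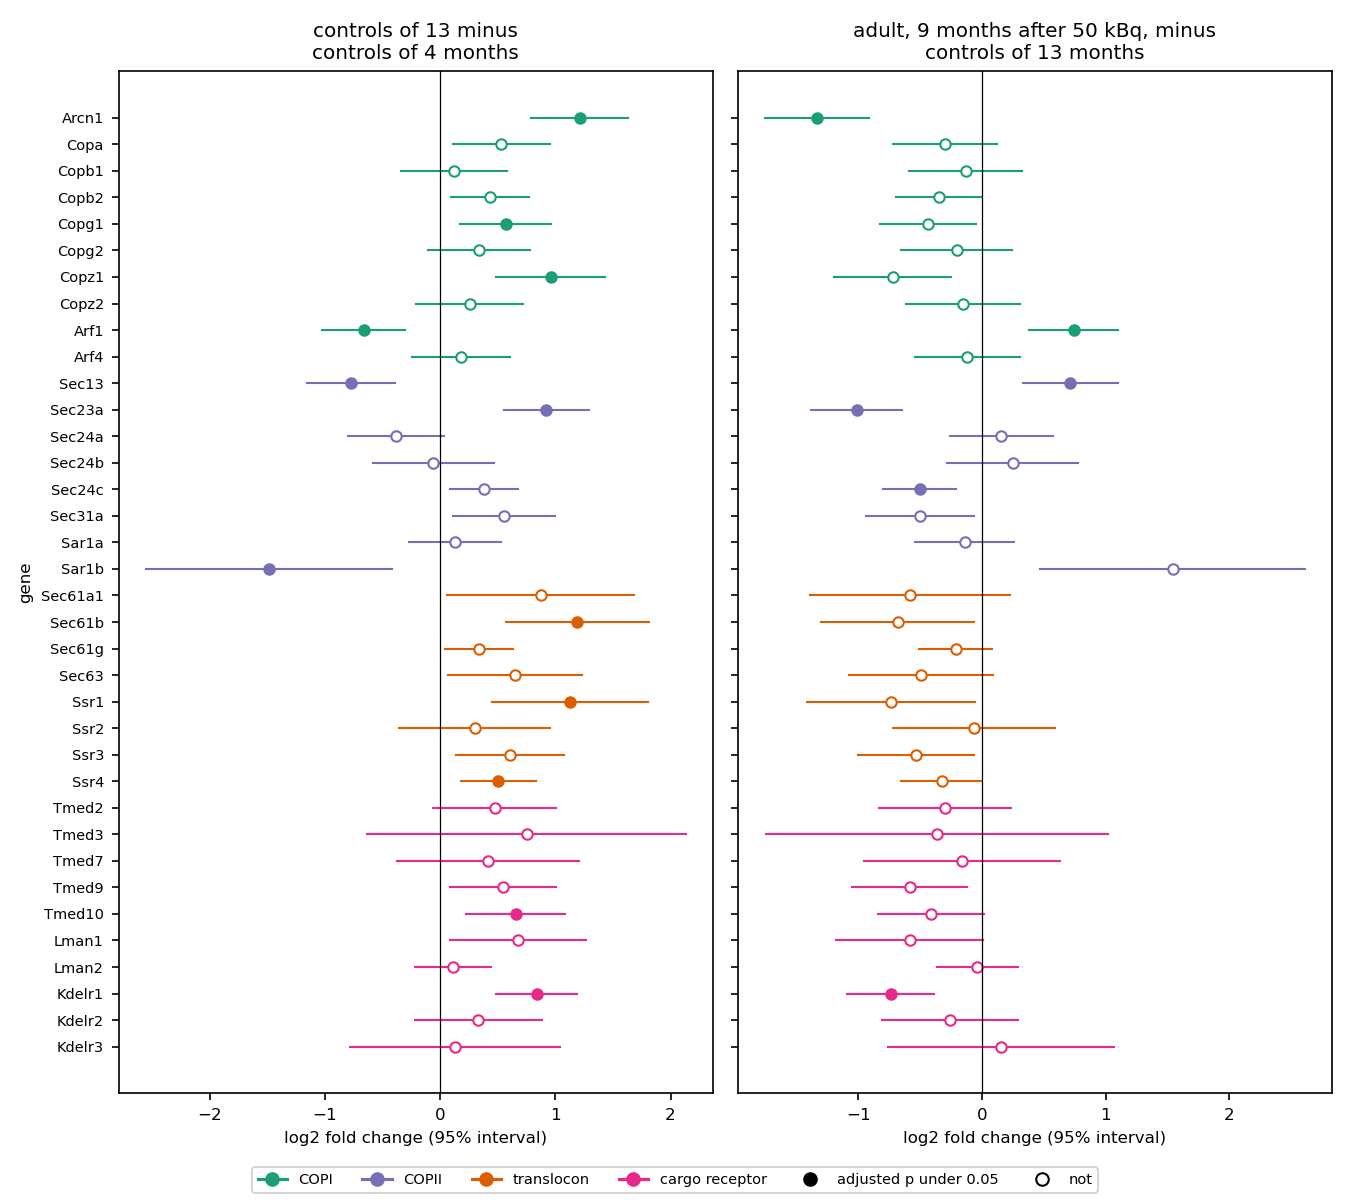
Log2 fold change (x axis) of the 36 members (y axis, coloured by role) with its 95% interval, for the controls of 13 minus those of 4 months (left) and for the adult rats 9 months after 50 kBq minus the controls of 13 months (right). Filled points passed an adjusted p of 0.05, which were 12 members on the left and 6 on the right, and both panels use the same 3 controls of 13 months.

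The 2 calls fell to 0 without replicate 1 or 2 of the exposed adults or replicate 1 or 2 of the 13-month controls (0% of all probes called in each), and to 1 without replicate 4 of the exposed adults (0.0396%). They rose to 4 without replicate 3 of the exposed adults (3.52%) or of the controls (1.22%) and to 5 with the dim array left out of the fit (4.43%). With the replicate number as a block 1 member was called (0.0356% of all probes), and with only these 2 groups in the fit 0 were (0%). Within the scan day that held 2 arrays of each group, Arcn1 changed by -1.34, Sec23a by -0.99, Kdelr1 by -0.57, Sec13 by 0.61 and Arf1 by 0.78. All 11 thyrocyte markers had lower means in the exposed adults (median -0.78, 0 past an adjusted p of 0.05 in limma, 1 at an unadjusted p under 0.05), and their mean deviation was -0.16 to 0.45 against 0.67 to 1.10 in the controls. For the 12 skeletal muscle markers 9 means were higher (median 0.53), with deviations of -9.12 to 0.19 against -3.83 to -2.55. The means of all 6 C cell, all 4 parathyroid and all 6 squamous epithelium markers were lower and those of all 6 adipocyte markers higher, 0 past it. The 75th percentiles of the arrays were 2433 to 3588 units in the exposed adults against 1331 to 1447 in the controls. The part of tissue makeup or of array brightness was not tested.

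Sec23a and Arf1 also stood apart on the 5 dimmest arrays. The 5 arrays with the lowest 75th percentile, chosen after their values were seen, were the 3 controls of 13 months and replicates 2 and 3 of the young rats at 3 months. Sec23a was -2.17 to -1.91 on these 5 arrays and -3.36 to -2.72 on the other 44, and Arf1 was 0.81 to 1.26 against 1.57 to 2.34. The Sec23a value of -1.91 is from the dim replicate 2 of the young rats. Sec23a was well above background on 48 of the 49 arrays and Arf1 on all 49. Sec23a and Arf1 were 2 of 36 members without overlap between the 5 arrays and the rest, 1 above and 1 below. Of all probes 2.18% had none (1.88% above and 0.301% below). As the cut was chosen after the values were seen and 3 of the 5 arrays are the 13-month controls, no conclusion is drawn from this count. The next dimmest array, replicate 2 of the adult rats at 6 months, had a 75th percentile of 1478, against 1447 for the brightest of the 5. It read -3.28 for Sec23a and 1.90 for Arf1, within the range of the brighter arrays. Arcn1 was -0.71 on replicate 3 of the young rats, within the range of the 13-month controls, but -1.71 on the dim replicate 2. Copz1 was 2.13 and 1.07 on these 2 arrays, below all 3 of the 13-month controls. The part of array brightness in the results for Sec23a and Arf1 was not tested.

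**Figure D5:**
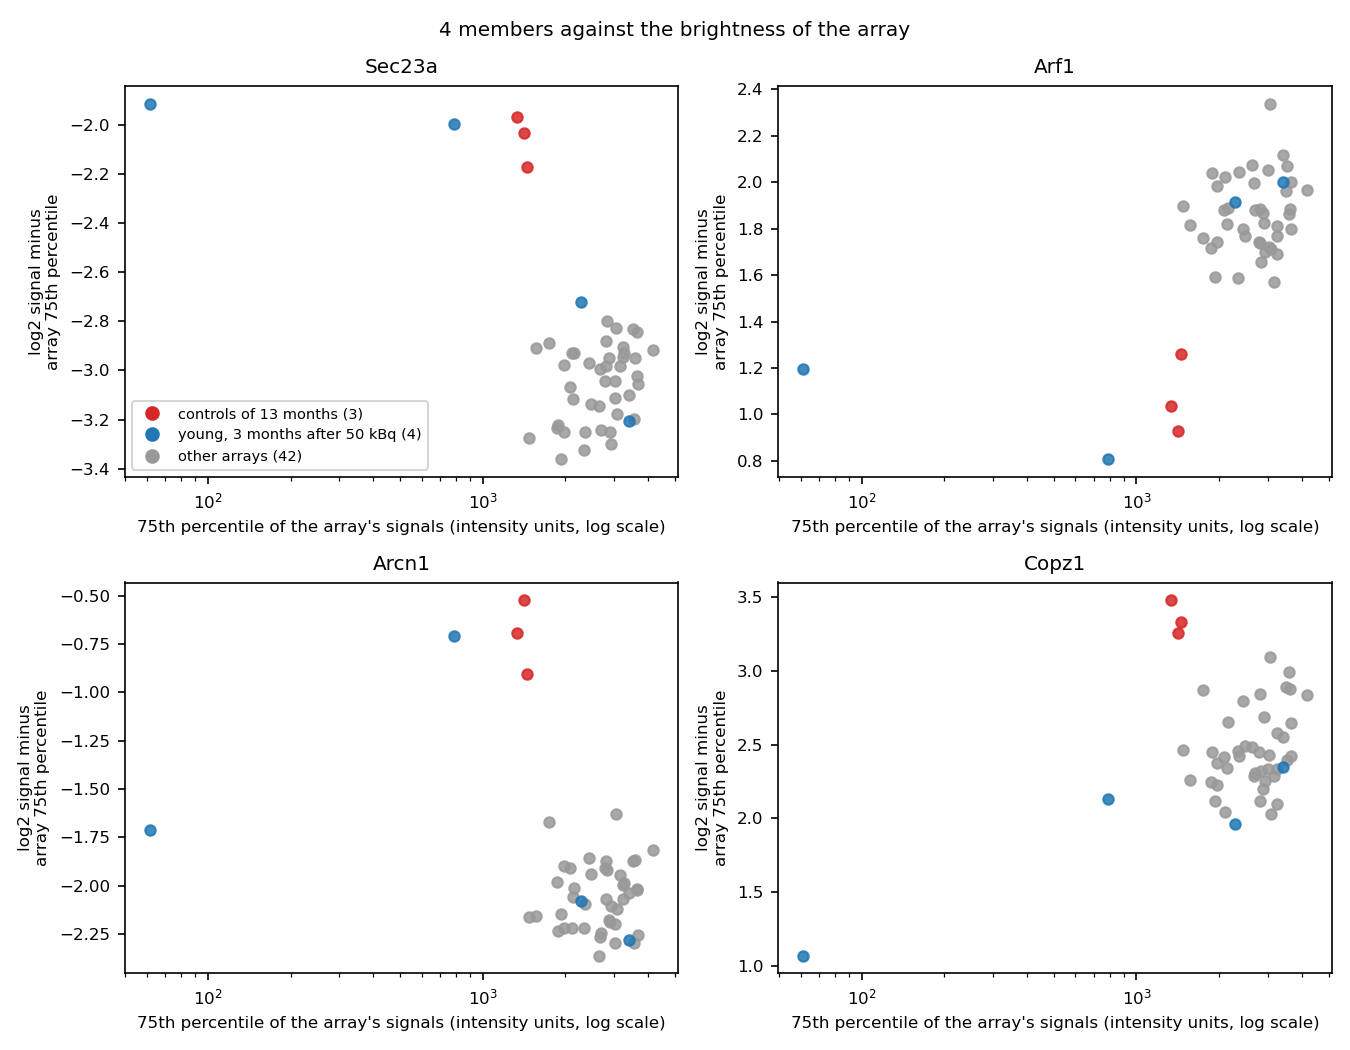
Relative log2 signal (y axis) of Sec23a, Arf1, Arcn1 and Copz1 against the 75th percentile of the array's signals (x axis, intensity units on a log scale), 1 point per array. Sec23a is above -2.2 and Arf1 below 1.3 on the 5 dimmest arrays, whereas Copz1 is high on the 3 controls of 13 months and low on the 2 dimmest arrays of young rats.

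In the young rats 3 months after 50 kBq, 0 of the 36 members were called against the 4-month controls, where 0.0119% of all probes were. At adjusted p under 0.05, 4 members differed where 17.2% of all probes did (13.6% higher and 3.6% lower). Tmed3, a p24 cargo receptor, read 0.25, -3.31, -1.99 and 0.19 against 0.24, 0.77, 1.22 and 0.06, a change of -1.79 (adjusted p 0.0469 in limma). Its low values were on the dim array and on the array with little thyrocyte signal, and the other 2 lay among the controls. Sec24b, a cargo-binding COPII subunit, read -0.19, -2.09, -1.20 and -0.03 against -0.29, 0.08, -0.05 and -0.15 and fell by 0.78 (adjusted p 0.0312 in limma), again through the same 2 arrays. Copg2, the second gamma subunit of coatomer, read -2.24, -2.97, -3.06 and -2.61 against -2.19, -1.80, -1.67 and -2.54 and fell by 0.67 (adjusted p 0.0300 in limma). Sec23a rose by 0.52 (adjusted p 0.0355 in limma) with values of -3.20, -1.91, -2.00 and -2.72, of which the first lay below all 4 controls. For each of these 4 members the second exposed value is from the dim array, and each was well above background on 48 of the 49 arrays.

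Sec63, a translocon partner that links the channel to the chaperone BiP, had the largest statistic of its role over the exposure comparisons. It read 0.24, 0.17, -0.19 and 0.40 against 0.52, 1.13, 1.46 and 0.41, a change of -0.72 at 3 months (adjusted p 0.0538 in limma). The groups did not overlap, by 0.40 against 0.41 at the closest, which held for 1 of the 36 members. The share of all probes without overlap is not given here. The exact permutation p was 0.0286, the smallest that 4 against 4 arrays allow. Sec63 was chosen on the same arrays, so this p is not separate evidence. For the other 4 named members the exact permutation p was 0.0571 for Copg2, 0.143 for Tmed3, 0.2 for Sec24b and 0.229 for Sec23a. Over the 36 members the median change was -0.37 against 0.29 for all probes, and 28 lay below 0 where 35.3% of all probes did. Without the dim array, 0 members passed an adjusted p of 0.05 (0% of all probes), as was also so without replicate 1, 2 or 3 of the 4-month controls (5.5%, 6.34% and 0%). Without replicate 1 of the exposed rats 14 members passed it, where 36.6% of all probes did, and 4 of them were called (16.5%). Without replicate 4 there were 11 (34.4%), of which 1 was called (14.8%). Of 6 cartilage markers, 4 were higher in these rats at adjusted p under 0.05 (median 2.28), all 12 skeletal muscle and all 5 airway markers had higher and all 4 parathyroid markers lower means (0 past it), and of the 11 thyrocyte markers 9 had lower means (median -1.30, 0 past it), with mean deviations of -5.76 to 0.91 against -1.33 to 0.70 in the controls. Their part in the members' values was not tested.

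In the other 7 exposure comparisons 0 members passed either level in limma. For young rats given 50 kBq the members' median was -0.15 at 6 months (0% of all probes called), with 2 members lower and 0 higher at an unadjusted p under 0.05, a level that 3.44% of all probes passed in the lower direction. At 9 months it was 0.05 (0.0119% of all probes called), with 0 members and 1.45% of all probes at that unadjusted p. The median at 9 months was -0.02 after 0.5 kBq (0% called), 0.16 after 5 kBq (0.0119% called) and 0.03 after 500 kBq (0% called). None of the 36 members reached an unadjusted p under 0.05 in these 3 groups, where 0.937%, 1.84% and 1.67% of all probes did. For adult rats the median was -0.01 at 3 months and 0.01 at 6 months (0% called in both), with 0 members at an unadjusted p under 0.05, where 4.65% and 0.842% of all probes were. The adult rats at 3 months and the young rats at 6 months share the 3 controls of 7 months. The members' median deviation on these controls was 0.52, -0.30 and 0.11, the -0.30 on the array with little thyrocyte signal. The medians of all probes lay between -0.11 and 0.07 in these 7 comparisons.

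The young rats given 5 kBq stood out by direction only. Of the 36 members 27 were above 0, against 47.8% of all probes, and 12 had all 3 exposed arrays above all 4 controls of 10 months where 8.82% of all probes did, with 1 below (6.54%). The role medians were 0.28 for cargo receptors, 0.26 for the translocon, 0.16 for COPI and -0.14 for COPII, and the smallest adjusted p in limma was 0.9997. The thyrocyte marker mean was 0.34, 0.48 and 0.40 on the 3 exposed arrays, above all 4 of the 10-month controls (-0.46 to 0.28), and 9 of the 11 markers had higher means. All 12 muscle markers had lower means, with deviations of -0.82 to 0.10 against -0.06 to 0.37, and 2 of the 4 controls were high in squamous epithelium markers (6.50 and 5.33, against -1.09 to 0.77 in the exposed rats). The part of tissue makeup was not tested. Among the 15 young rats taken 9 months after 0.5 to 500 kBq, 25 members rose and 11 fell with log10 of the activity, and 0 had an unadjusted p under 0.05 (2.63% of all probes did).

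The effect of 50 kBq was also compared between young and adult rats, and between 9 and 3 months in young rats, in the same fit. No member passed an adjusted p of 0.05 in limma in any of these 4 comparisons, where 0.0119% of all probes passed at 3 months and 0% in the other 3. At an unadjusted p under 0.05 there were 5 members in the young-minus-adult difference at 3 months (29.3% of all probes), 0 at 6 months (4.12%) and 10 at 9 months (13.4%), and 9 in the 9-minus-3-month difference (17.2%). At 9 months the young-minus-adult difference for Arcn1 was 1.22 with a 95% interval of 0.65 to 1.79, and the smallest adjusted p of any member was 0.149. Without the dim array 4 members passed 0.05 there, Copz1, Kdelr1, Arcn1 and Sec23a, where 2.21% of all probes did. This difference also rests on the 13-month controls. Between untreated controls of other ages 0 members passed either level, with medians of 0.13 for 7 against 4 months (0.00396% of all probes called) and -0.04 for 10 against 4 months (0.0119% called). At an unadjusted p under 0.05 there were 1 and 0 members, where 7.57% and 3.65% of all probes were.

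Set against the promoter windows, most of the 7 members that hold TGACGTGG had the direction of the members as a whole. In the 13-month against the 4-month controls 6 of the 7 lay above 0 and Arf1 below, next to 31 of all 36 members above 0. The median was 0.18, next to 0.45 for all members. In the exposed adults at 9 months 5 lay below 0 and 2 above, next to 30 of all 36 below 0. The median was -0.13, next to -0.31 for all members. Sec23a and Arf1, whose windows both hold the motif, changed in opposite directions in both comparisons.

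Other genes of the pathway, 84 of a list of 95 with a probe, were taken as a list and not for how they moved. In the 13-month against the 4-month controls 22 of the 84 were higher and 4 lower at adjusted p under 0.05, beside 11.2% and 7.72% of all probes, and 7 were called, all higher (2.95% of all probes). The oligosaccharyltransferase, which attaches glycans next to the translocon, had 6 of 11 subunits higher, and the ER chaperones and unfolded protein response genes 6 of 19, while 0 of 8 genes of the signal recognition particle and its receptor passed in either direction. Surf4, a cargo receptor of the ER, rose by 1.15 (adjusted p 0.0012 in limma), and the tether subunit Trappc3 (0.84), the oligosaccharyltransferase subunit Rpn1 (1.12), the SNARE Ykt6 (0.74) and the chaperone Calr (1.90) followed. In the exposed adults at 9 months 3 of the 84 were higher and 4 lower, beside 2.12% and 2.68% of all probes, among them Surf4 at -0.93 (adjusted p 0.0118 in limma), Ykt6 at -0.66, the stress sensor Atf6 at -1.14, the outer coat gene Sec31b at 2.56 and the p24 protein Tmed1 at 0.89. In the young rats at 3 months 4 of the 84 were higher and 8 lower, beside 13.6% and 3.6% of all probes, among them the sensor Ern1 at 1.55 and the chaperone partner Dnajb9 at -1.34, and in all other exposure and age comparisons 0 passed.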

How the data were processed

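Thyroid RNA was hybridised to 1-colour Agilent rat arrays, 49 in all. The sample titles number the replicates within a group, and each replicate was taken as a separate rat. The authors deposited 1 Feature Extraction file per array with the processed signal as intensity, already background-corrected, and with marks (other) that the authors deposited for spots well above background or saturated. A deposited table of fold changes was not used. Control spots were left out, spots of a probe were averaged (30367 probes), and log2 of the processed signal minus the array's 75th percentile was fitted in limma 3.58.1 (R 4.3.3) with 1 mean per group over all 49 arrays. Probes well above background on at least 3 arrays were tested (25284). Symbols came from RefSeq accessions (17998 probes, 15154 symbols). The number of arrays limits the precision. No spot was saturated, so no member's signal was cut off from above. Several members, among them Sec23a, Sec24b, Copg2 and Tmed3, were well above background on 48 of the 49 arrays. Their lowest intensities can thus lie near background.

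Single members were also tested by two-sided exact permutation in Python 3.11.15 with numpy 2.4.6. Full values are given for members at adjusted p under 0.05 in any exposure, age or interaction comparison and for the largest moderated t of each role over exposure and over age comparisons, 17 members in all. The members and all lists were chosen with earlier results of these data known. Replicates that share a number were checked for pairing. In 32 pairs the deviations correlated at -0.52 to 0.50, and only in the young rats given 50 kBq at 6 months were all pairs over 0.1, where the block changed no call. The alternatives were other scalings, background corrections, probe filters, slide, scan day and replicate blocks, array weights, averaged probes, smaller fits and leaving out arrays. The planned background correction used mean spot signals, and median spot signals took their place. Scripts were tested on simulated data.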

Additional observations from a re-analysis of the deposited data

Results flagged for a closer look

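The gap between 1 array and the rest of its group, as a share of the group's range, was tested in groups of 4 for the medians of each role and of all members (50 values) and for the signals of members described in full in the groups compared (27 values). Of these, 5 medians and 0 single members passed Dixon's limit, where chance passes about 1 in 20. Replicate 4 of the young rats given 500 kBq accounted for 3 of them. Its members' median deviation was 0.27, against -0.12 to -0.08 on the other 3 arrays, with 0.33 for COPI (others -0.13 to -0.06) and 0.42 for the translocon (others -0.20 to -0.15). That array had a muscle marker deviation of -2.76 against 0.23 to 0.50 on the other 3, and a thyrocyte deviation of 0.57 against -0.64 to -0.15, whose part was not tested. The COPI median of replicate 3 of the 10-month controls was -0.13, against -0.06 to -0.05. The cargo receptor median of replicate 3 of the adult rats at 6 months was 0.080, against -0.15 to -0.12.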

How the results depend on the processing

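The counts of called members depended on the processing, and the causes were not tested. In the comparisons with calls 20 of 51 recomputed counts stayed within 1.5 times the main count, 13 were larger and 18 smaller. In those with 0 calls 357 of 362 stayed at 0, which says little about stability. Of 407 medians 380 moved by less than 0.19, the spread between arrays. For the exposed adults at 9 months (2 called) the count was 1 with median scaling, normexp, no filter, the scan day block or the replicate block, 0 with only the 2 groups, 10 with array weights, 6 at adjusted p under 0.05, 5 without the dim array, 4 without the 2 arrays low in thyrocyte markers and 6 without all 3. For the controls of 13 against 4 months (6 called) it was 2 with normexp, 10 with the slide as a fixed block, 12 with array weights or at adjusted p under 0.05, 0 with only the 2 groups, and 10 without the dim array or without all 3. The young-minus-adult difference at 9 months went from 0 to 10 with weights and 2 without the 3 arrays, the F test from 2 to 1 with the scan day block and 8 without them, and the young rats at 3 months from 0 to 4 at adjusted p under 0.05. Leaving out 1 array gave 0 to 4, 0 to 7 and 0 to 4 called members in the exposed adults, the older controls and the young rats at 3 months, and 0 elsewhere. The replicate block changed no other call. The members' median in young rats at 3 months (-0.37) was -0.14 with the slide block, -0.11 with weights and -0.13 without the 3 arrays. The young-minus-adult median at 3 months (-0.32) was -0.51 with quantile scaling, -0.046 with the slide block, -0.054 with weights and 0.084 without the 3 arrays, and at 9 months (0.36) 0.13 with the slide block. The 9-minus-3-month median (0.51) was 0.29 with normexp, 0.11 with the slide block or weights, 0.24 with averaged probes, 0.25 without the dim array and 0.15 without the 3 arrays. Without the 2 arrays low in thyrocyte markers, or all 3, the median was -0.23 in adults at 3 months, 0.35 in controls of 7 against 4 months and -0.35 for the difference at 6 months. Leave-one-out medians were -0.45 to -0.22 in the exposed adults at 9 months, 0.38 to 0.52 in the older controls, -0.47 to -0.18 in young rats at 3 months, -0.23 to 0.18 in adults at 3 months, -0.064 to 0.35 in controls of 7 months, -0.31 to 0.051 in young rats at 6 months, -0.59 to -0.15 and -0.35 to 0.065 for the differences at 3 and 6 months, and 0.25 to 0.61 for 9 minus 3 months. Copg2 in young rats at 3 months (-0.67) reversed to 0.18 with normexp, ran from -0.94 to 0.18 over 24 alternatives and passed an adjusted p of 0.05 in 12 of them. The median of all probes in the controls of 13 against 4 months was 0.19, 0.09 with median scaling and 0.40 with normexp, and in young rats at 3 months 0.29, -0.09 with quantile scaling and 0.67 with normexp. These alternatives without arrays, and normexp on median signals, were chosen after seeing the data.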
